A study of Mus musculus with 8 samples.

Results

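The nuclear genes for oxidative phosphorylation were followed in mouse cortex, in wild-type (WT) mice and in mice that lack both SHARP1 and SHARP2 (S1/2-/-), at a time of rest and a time of activity. The set was defined by gene symbol. Of 8251 genes named by a probe set with 1 annotated symbol, 71 had a symbol that begins with Nduf, Sdha to Sdhd, Uqcr, Cox4 to Cox8 or Atp5. Each gene was represented by the probe set with the highest mean log2 signal over the 8 arrays. The set holds 29 genes of complex I, 4 of complex II, 7 of complex III, 15 of complex IV and 14 of complex V, and the factors *Ndufaf1* and *Ndufaf4*, which help to assemble complex I. A further 10 probe sets that carry several symbols, among them those for *Ndufa11*, *Ndufb4*, *Ndufs5*, *Ndufs6* and *Cox7c*, were left out. *Atp5b*, *Cox4i2* and *Atp5g3* were not analysed here.

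Each array held the RNA of 1 mouse, and each of the 4 groups held 2 mice. WT and S1/2-/- mice of the strain C57/bl6 were killed at 4 months of age at ZT4 or at ZT16, which is 4 h or 16 h after the lights came on in a cycle of 12 h of light and 12 h of darkness. The S1/2-/- mice carry null alleles of both genes, without any treatment, and the methods state that they were bred with their WT controls from parents heterozygous for both. A block of cortex between bregma 0 and -2 mm was cut out with a slicer, so every cell type of that block contributed RNA. In such tissue fewer cells of a type and less RNA per cell cannot be told apart. The labels name Trizol for the RNA, whereas the methods name silica columns. SHARP1 and SHARP2 are basic helix-loop-helix repressors that bind E-box motifs and belong to the circadian clock. The probe set for SHARP2 (*Bhlhe40*) gave signals of 983 to 1285 over the WT mice and 834 to 1043 over the S1/2-/- mice. No source used here places it against the deleted sequence, so the genotype labels could not be checked with it. SHARP1 was not analysed here. P-values measure only the spread between these mice.

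Oxidative phosphorylation couples the oxidation of fuels to the making of ATP in the inner mitochondrial membrane. Complexes I, III and IV pump protons while they pass electrons from NADH to oxygen, complex II feeds in electrons from succinate, and complex V, the ATP synthase, lets the protons flow back. Most subunits are encoded in the nucleus, and neurons depend on them for the ATP that ion pumping and synaptic transmission consume. Mitochondrially encoded subunits lie outside the rule and were not analysed here.

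Of the 71 genes, 64 passed a filter on dim signals, a mean log2 signal of at least 6.79. These were 26 of 29 in complex I, 4 of 4 in complex II, 7 of 7 in complex III, 12 of 15 in complex IV, 13 of 14 in complex V and both assembly factors. *Ndufa1*, *Ndufa12*, *Ndufc2*, *Cox5a*, *Cox7a1*, *Cox8a* and *Atp5j2* did not pass it. Their single signals ranged from 5.95 (*Cox5a*) to 138 (*Ndufa1*). Signals are on the linear scale of the deposited files, and differences between groups are differences of mean log2 signals. All counts of tested genes below refer to the 64.

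Partner arrays of a group correlated at r = 0.936 to 0.940 over all probe sets on the log2 scale, a description over probe sets that share the 2 arrays. The ratio of 3′ to 5′ signal of *Gapdh*, a sign of RNA integrity, was 0.884 to 0.918 on 5 arrays and 0.952 to 0.961 on WT ZT16 replicate 2 and both S1/2-/- ZT16 arrays. The same ratio of actin was 1.91 to 2.3 on the WT arrays and 1.76 to 1.9 on the S1/2-/- arrays, so the genotypes did not overlap. The part of RNA integrity in the values of the subunits was not tested. WT ZT16 replicate 2 stood apart for the members: it was the highest of the 8 arrays for 26 of the 64 genes, against 18.4% of all tested probe sets, and its *Gapdh* 3′ signal was 36080 against 27710 to 30860 on the others. Where a larger ZT16 difference or WT time change printed below shrank by over 1.5 times or turned without this array, that value is given. Small ZT16 differences that did so are printed below without it. Those of *Atp5k* (0.16 without this array), *Uqcrc1* (0.06), *Cox6a2* (-0.16), *Atp5g2* (0.03) and *Ndufaf4* (-0.035) turned. Those of *Cox4i1* (0.05) and *Ndufs3* (-0.03) shrank. Of 8 markers listed for excitatory neurons of the cortex, 5 were measured, and none was below a signal of 50 in any group.

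No member passed the test in any of the 7 comparisons, at a fold change over 1.5 and a Benjamini-Hochberg adjusted p under 0.05 in limma. Among all 7453 tested probe sets the same rule called 0.0134% for time in WT, 0% for time in S1/2-/- mice, 0% for the difference between those changes, 0.0939% and 0.0134% for genotype at ZT4 and at ZT16, 0.255% for genotype averaged over both times, and 0% for time averaged over both genotypes. The same fit without limma's moderation, in place of the methods' ANOVA over time, also called 0 members in every comparison with the same thresholds. For genotype the methods used moderated t statistics. An unadjusted p under 0.05 was most frequent for genotype at ZT16, with 14 members lower and 1 higher by limma. The unmoderated fit gave 10 lower and 3 higher there. The standard error of a difference between 2 groups had a median of 0.12 over the members on the log2 scale, which gives a 95% interval of ±0.26. At ZT16 that interval lay within a 1.5-fold change in either direction for 43 of the 64 genes.

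The main pattern was a lower signal of most subunits in S1/2-/- mice at ZT16. Of the 64 genes, 47 were lower than in WT at this time and 17 were higher, with a median difference of -0.16 on the log2 scale, or 0.893-fold. Over all tested probe sets the median was 0.01 and 49.2% were lower. The members give brighter signals than most probe sets do, so the 1987 tested probe sets at least as bright as the lower quartile of the members were taken as a closer background, and there the median was -0.04 with 57.9% lower. An unadjusted p under 0.05 was found for 14 members in the lower direction, against 5.21% of all tested probe sets and 9.31% of the bright ones. It was found for 1 member, *Sdhc*, in the higher direction, against 5.73% of all. Both S1/2-/- mice lay below both WT mice for 35 members (21% of all, 29.8% of bright probe sets) and above them for 7 (21% of all, 17.3% of bright).

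Each mouse showed the pattern. The median deviation of the 64 genes from their own means was -0.10 and -0.08 in the S1/2-/- mice at ZT16 and lay between -0.02 and 0.10 in the 6 others, where WT ZT16 replicate 1 had 0.01 and replicate 2 had 0.10. For 21 members, both S1/2-/- ZT16 mice were lower than every one of the 6 other mice (6.44% of all tested probe sets and 11.5% of the bright ones). They comprised 10 genes of complex I, 5 of complex III, 4 of complex V, *Cox7a2l* of complex IV and *Ndufaf1*. Both mice were the highest of the 8 for *Cox8c* and *Ndufa10* (7.12% of all). The same rule gave 2 lowest and 5 highest genes in WT ZT16 mice (4.19% and 4.56% of all), 0 and 3 in WT ZT4 mice (4.98% and 5.07%) and 1 and 1 in S1/2-/- ZT4 mice (3.82% and 3.98%). Without WT ZT16 replicate 2, the median difference at ZT16 was -0.11 with 48 of 64 genes lower, and without replicate 1 it was -0.20 with 43 lower. The number with an unadjusted p under 0.05 in the lower direction was then 8 and 23, and it was 4 without S1/2-/- ZT16 replicate 1. All of the 14 genes above were lower also without WT ZT16 replicate 2, and 7 of them then differed by over 1.5 times less on the log2 scale. Median centring of the arrays, which moved the median of all tested probe sets to -0.10, gave 54 of 64 lower (62.7% of all tested probe sets under that scaling), a median of -0.265 and 28 genes at an unadjusted p under 0.05 in the lower direction.

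**Figure D1:**
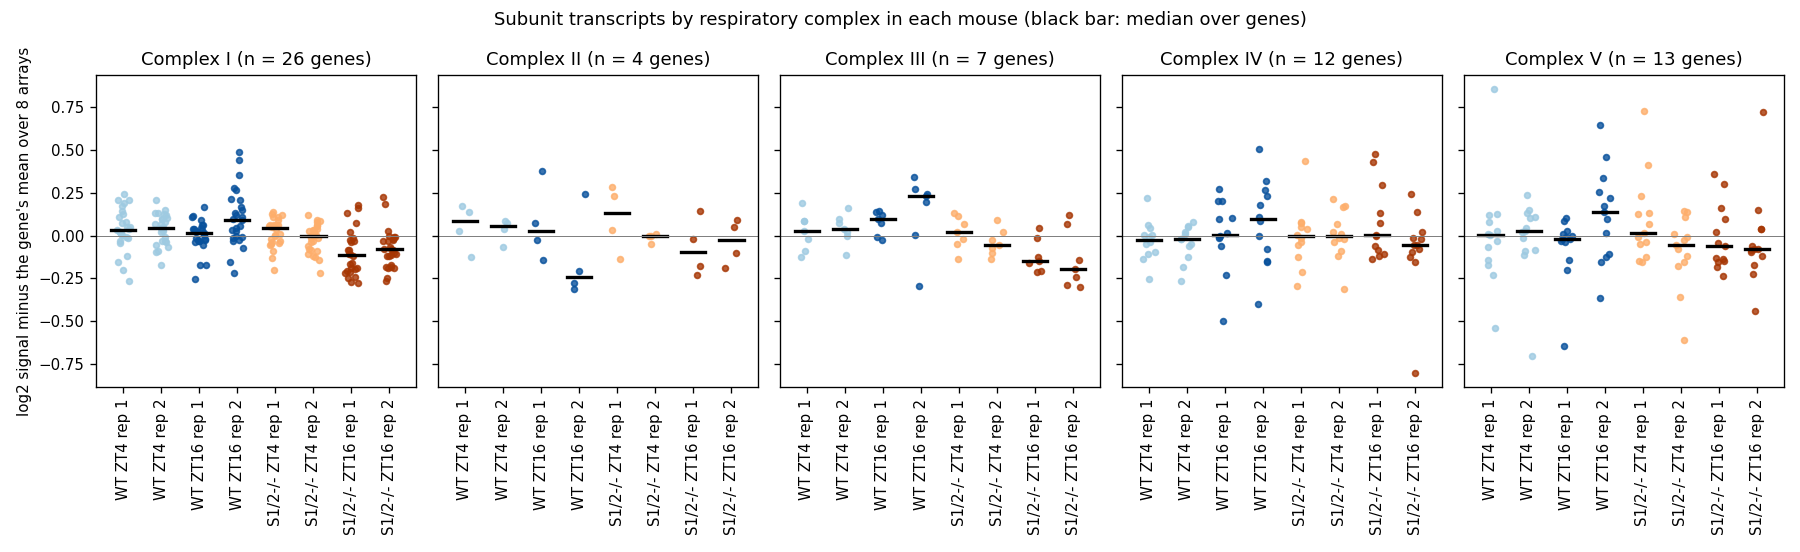
Each point is 1 tested subunit, in a panel for its complex (the assembly factors are not drawn), with the 8 mice on the x axis and the log2 signal minus the gene's mean over the 8 arrays on the y axis, and a black bar marks the median. The bars of complexes I and III are lowest in the S1/2-/- ZT16 mice (-0.11 and -0.08 in complex I, -0.15 and -0.20 in complex III), whereas that of complex IV is 0 and -0.05.

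The promoters of members with an unadjusted p under 0.05 in the lower direction were read to show what lies at their starts, since the missing repressors bind E-boxes. RefSeq promoters (GRCm38.p6), each of 250 bases before and 50 after a gene's start, were matched by gene identifier for 58 of the 71 genes. Motifs were searched on both strands in 63 member promoters and in all 32851 promoters of the table, and windows of a gene with several starts overlap. The E-box CACGTG was found in 9.52% of member promoters and 7.15% of all. CCGGAAG, the core of sites for ETS factors such as GABP (NRF2), was in 25.4% against 8.86%, the core of NRF1 sites, GCGC and GCGC with any 2 bases between, in 23.8% against 6.23%, and AANATGGCG, the core of YY1 sites, in 11.1% against 2.38%. NRF1 and GABP are known as activators of respiratory chain genes. Of the 9 such genes with a promoter, 4 held the NRF1 core, 3 the ETS core, 1 the E-box and 0 the YY1 core. *Uqcr10*, which had the lowest p of the 9, and *Ndufv3* held none of these motifs. The E-box was in the promoter of *Atp5l*. Promoters of the 3 genes below show an ETS core by the start (*Uqcrh*), an E-box with ETS cores (*Atp5l*) and overlapping NRF1 cores (*Ndufv2*). They are written 5′ to 3′ on the strand of the gene, with the motif letters in capitals (the ETS core reads CTTCCGG on this strand). Positions are counted from 0 at the start base, and bases before it are negative.
Uqcrh, chr4:116075021-116075320, minus strand: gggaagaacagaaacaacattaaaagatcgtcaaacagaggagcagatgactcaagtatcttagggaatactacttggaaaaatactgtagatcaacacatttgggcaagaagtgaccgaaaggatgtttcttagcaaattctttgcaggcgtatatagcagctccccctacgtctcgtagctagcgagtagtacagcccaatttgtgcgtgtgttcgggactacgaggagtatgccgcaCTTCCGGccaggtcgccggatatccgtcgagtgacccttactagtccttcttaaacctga
Atp5l, chr9:44920693-44920992, minus strand: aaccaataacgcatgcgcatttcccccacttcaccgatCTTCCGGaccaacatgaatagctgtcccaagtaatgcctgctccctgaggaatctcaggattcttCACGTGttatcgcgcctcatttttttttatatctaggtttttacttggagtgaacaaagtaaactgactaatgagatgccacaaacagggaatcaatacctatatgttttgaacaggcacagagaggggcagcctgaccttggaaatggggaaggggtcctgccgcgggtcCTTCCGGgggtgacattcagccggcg
Ndufv2, chr17:66101510-66101809, minus strand: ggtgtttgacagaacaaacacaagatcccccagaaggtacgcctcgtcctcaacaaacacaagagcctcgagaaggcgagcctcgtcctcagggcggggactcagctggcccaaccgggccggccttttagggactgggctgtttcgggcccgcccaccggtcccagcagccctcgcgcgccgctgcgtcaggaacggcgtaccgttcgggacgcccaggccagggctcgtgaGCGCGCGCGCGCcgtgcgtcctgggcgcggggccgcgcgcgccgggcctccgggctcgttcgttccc
The ETS core of *Uqcrh* lies on the opposite strand and begins at position -10. In *Atp5l* the E-box begins at -147 and the ETS cores at -212 and 24. The NRF1 cores of *Ndufv2* overlap each other and begin at -17 and -15. A match of letters shows neither binding nor an effect on the transcript.

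Complex III, which passes electrons from ubiquinol to cytochrome c, had the lowest median of the complexes at ZT16. Its 7 genes had a median genotype difference of -0.26 on the log2 scale, 6 of 7 were lower in S1/2-/- mice, and both S1/2-/- mice lay below both WT mice for 5, beside the 21% of all and 29.8% of bright probe sets given above. At ZT4 the median was -0.01. Over all alternative settings the ZT16 median stayed between -0.38 and -0.22.

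*Uqcrc2*, a core subunit that faces the mitochondrial matrix, had the lowest p of all members. Its signal at ZT16 was 5327 and 5807 in WT against 4355 and 3913 in S1/2-/- mice, and at ZT4 it was 5113 and 5065 in WT against 4655 and 4586 in S1/2-/- mice. The S1/2-/- mice were thus below the WT mice at both times, with the wider gap at ZT16. The difference at ZT16 was -0.43 (standard error 0.09, 95% interval -0.635 to -0.225, adjusted p = 0.248 in limma), or 0.742-fold, and that at ZT4 was -0.14 (adjusted p = 0.797). *Uqcr10*, a small subunit of the complex, read 2807 and 3084 in the WT and 2263 and 2224 in the S1/2-/- mice at ZT16, a difference of -0.39 (standard error 0.10, adjusted p = 0.281). At ZT4 it read 2996 and 2803 in WT against 2590 and 2388 in S1/2-/- mice, so here too the genotypes did not overlap at either time.

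*Uqcrb*, a subunit that contacts the ubiquinone site, and *Uqcrh*, the hinge protein at the docking site of cytochrome c, were closer between the genotypes at ZT4 than at ZT16. The *Uqcrb* signal was 1144 and 1261 in WT ZT4, 1371 and 1580 in WT ZT16, 1365 and 1200 in S1/2-/- ZT4 and 1114 and 1018 in S1/2-/- ZT16. Its values thus ran upward from ZT4 to ZT16 in WT and downward in S1/2-/- mice. The genotype difference at ZT16 was -0.47 (standard error 0.13, adjusted p = 0.317), and the difference between the time changes was -0.56 (standard error 0.19, adjusted p = 0.765). *Uqcrh*, whose promoter is printed above, read 3493 to 3795 on all 6 arrays of the other groups and 3019 and 3044 in S1/2-/- mice at ZT16. Within S1/2-/- mice the ZT16 minus ZT4 difference was -0.285 (standard error 0.09, adjusted p = 0.539), the lowest p of any member in that comparison.

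The other subunits of complex III were closer together. *Uqcrq* read 6496 and 7828 in WT against 6066 and 5996 in S1/2-/- mice at ZT16, a difference of -0.24 (adjusted p = 0.460) that was -0.11 without WT ZT16 replicate 2. *Uqcrc1*, the second core subunit, differed by -0.04 (standard error 0.10) at ZT16 and had its higher signals at ZT16 in both genotypes. *Uqcr11* was the 1 gene of the 7 with a higher mean in S1/2-/- mice at ZT16, by 0.165 (standard error 0.14, adjusted p = 0.681), which turned to -0.02 without that mouse. *Cyc1*, the cytochrome c1 subunit, falls outside the symbol rule and differed by -0.10 (standard error 0.10, adjusted p = 0.761).

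**Figure D2:**
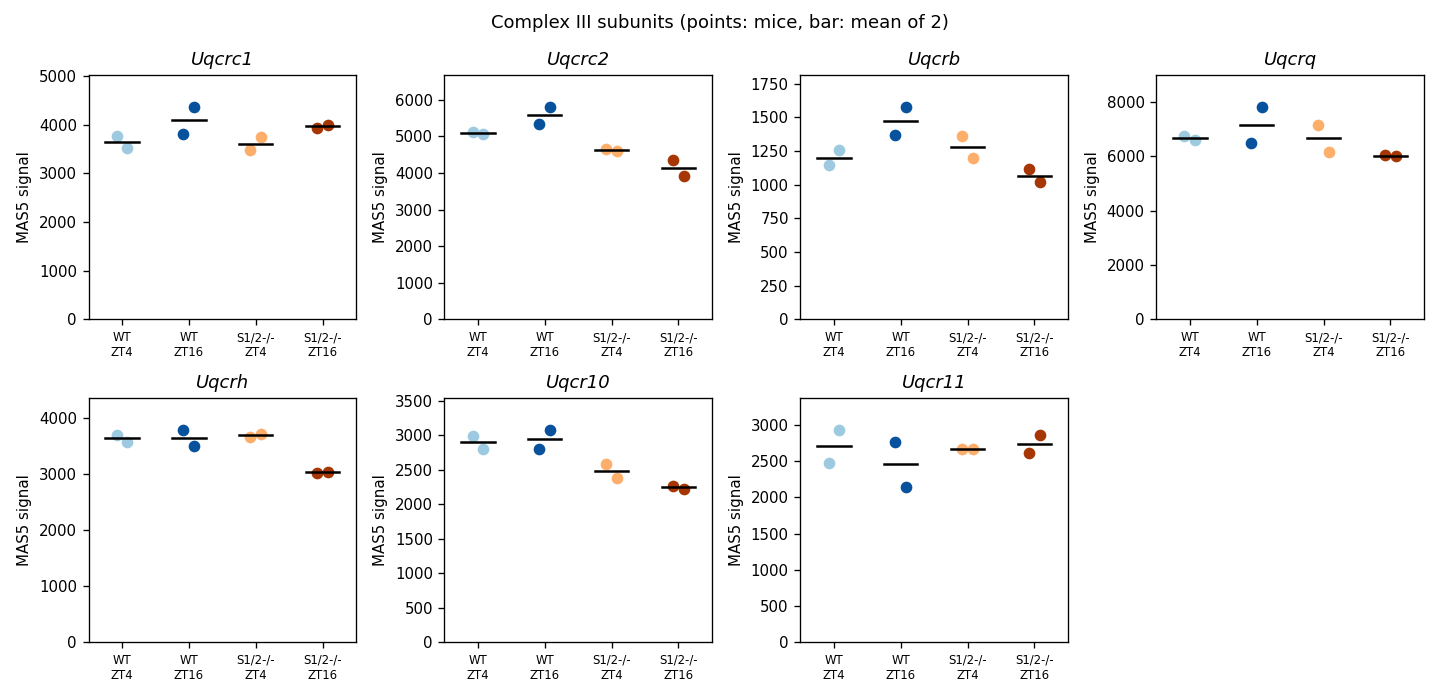
Signals of the 7 complex III genes on a linear scale from 0, with 1 point per mouse and a bar at the mean of the 2 mice in each of the 4 groups. In *Uqcrc2*, *Uqcrb*, *Uqcrh*, *Uqcr10* and *Uqcrq* the 2 S1/2-/- ZT16 points lie below all 6 other points, which is not so in *Uqcrc1* and *Uqcr11*.

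Complex V, the ATP synthase, was divided by part of the enzyme. Its 13 tested genes had a median of -0.09 at ZT16, with 8 lower, 5 higher and 5 of the lower ones at an unadjusted p under 0.05 (5.21% of all and 9.31% of bright probe sets). The share that was lower was near that of the bright probe sets, 57.9%. In the catalytic F1 head, *Atp5a1* (alpha subunit) differed by -0.20 (standard error 0.08, adjusted p = 0.408) and *Atp5c1* (gamma subunit of the rotor) by -0.21 (standard error 0.09, adjusted p = 0.455) at ZT16. *Atp5a1* read 11670 and 13190 in WT against 10660 and 10960 in S1/2-/- mice. Without WT ZT16 replicate 2 these differences were -0.11 and -0.12. A second probe set for *Atp5c1* differed by -0.235 at ZT16. *Atp5e* (epsilon subunit) differed by -0.26 (standard error 0.13), and its S1/2-/- mice, at 1403 and 1555, were below the WT mice, at 1771 and 1765.

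*Atp5d*, the delta subunit of the same head, went the other way. Its signal was 1508 and 1535 in WT ZT4, 1257 and 1285 in WT ZT16, 1246 and 1333 in S1/2-/- ZT4 and 1549 and 1422 in S1/2-/- ZT16. The genotypes did not overlap at either time, with S1/2-/- mice lower at ZT4 (-0.24) and higher at ZT16 (0.22, adjusted p = 0.494). The difference between the time changes was 0.46 (standard error 0.16, adjusted p = 0.778). The other 3 tested probe sets for *Atp5d* gave 0.11, -0.045 and 0.00 at ZT4 and 0.02, 0.09 and 0.75 at ZT16. For time in WT they gave -0.09, 0.07 and -0.31 against -0.26 on the one used, and the mean over all 5 probe sets was 0.03 because it includes one too dim to be tested, at 0.74.

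The small membrane subunits that hold the ATP synthase together as a dimer gave the largest differences among the genes of the complex with an unadjusted p under 0.05. *Atp5md*, also known as DAPIT, read 8521 and 13670 in WT against 7852 and 7489 in S1/2-/- mice at ZT16, against 8891 and 8636 in WT against 8014 and 8059 in S1/2-/- mice at ZT4. Only WT ZT16 replicate 2 was far from the rest. The ZT16 difference of -0.49 (standard error 0.17, adjusted p = 0.365) became -0.15 without that mouse. It was -0.835 and called without its partner, and its adjusted p ranged from 0.00202 to 0.733 over all settings. *Atp5l* (subunit g), with the E-box in its promoter, read 7101 and 8903 in WT against 6223 and 6503 in S1/2-/- mice, a difference of -0.32 (standard error 0.11, adjusted p = 0.365) that was -0.16 without WT ZT16 replicate 2. *Atp5mpl*, a proteolipid of the same region, read 3731 and 5032 in WT against 3303 and 3466 in S1/2-/- mice, with a difference of -0.36 (standard error 0.14, adjusted p = 0.391), or -0.14 without that mouse. *Atp5k* (subunit e) differed by -0.07 (standard error 0.27).

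In the peripheral stalk, which keeps the head from turning, *Atp5o* and *Atp5j* were higher in S1/2-/- mice at ZT4 and *Atp5pb* was not. *Atp5o* (OSCP) read 2942 and 3058 in WT against 3803 and 3577 in S1/2-/- mice at ZT4, a difference of 0.30 (standard error 0.10, 95% interval 0.09 to 0.51, adjusted p = 0.461). At ZT16 it read 3202 and 2974 in WT against 3147 and 3327 in S1/2-/- mice, where the groups overlapped. *Atp5j* (F6) read 2988 and 3117 in WT against 3678 and 3708 in S1/2-/- mice at ZT4, a difference of 0.275 (standard error 0.11, adjusted p = 0.630). These were the 2 members with an unadjusted p under 0.05 in the higher direction at ZT4 (4.04% of all tested probe sets), and *Ndufv2* was the 1 in the lower direction (3.25%), so neither count stood above the share of all probe sets. The ZT4 difference of *Atp5pb* was -0.015, and *Atp5mpl* and *Ndufa3*, which lie outside the stalk, were also higher without overlap at ZT4, by 0.19 and 0.195. *Atp5pb* (subunit b) read 377 and 128 in WT ZT4, and its differences between groups had a standard error of 0.55. The ring subunit c, which is the same protein from several genes, showed standard errors of 0.45 for *Atp5g1* (0.11 at ZT16) and 0.15 for *Atp5g2* (-0.09 at ZT16).

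**Figure D3:**
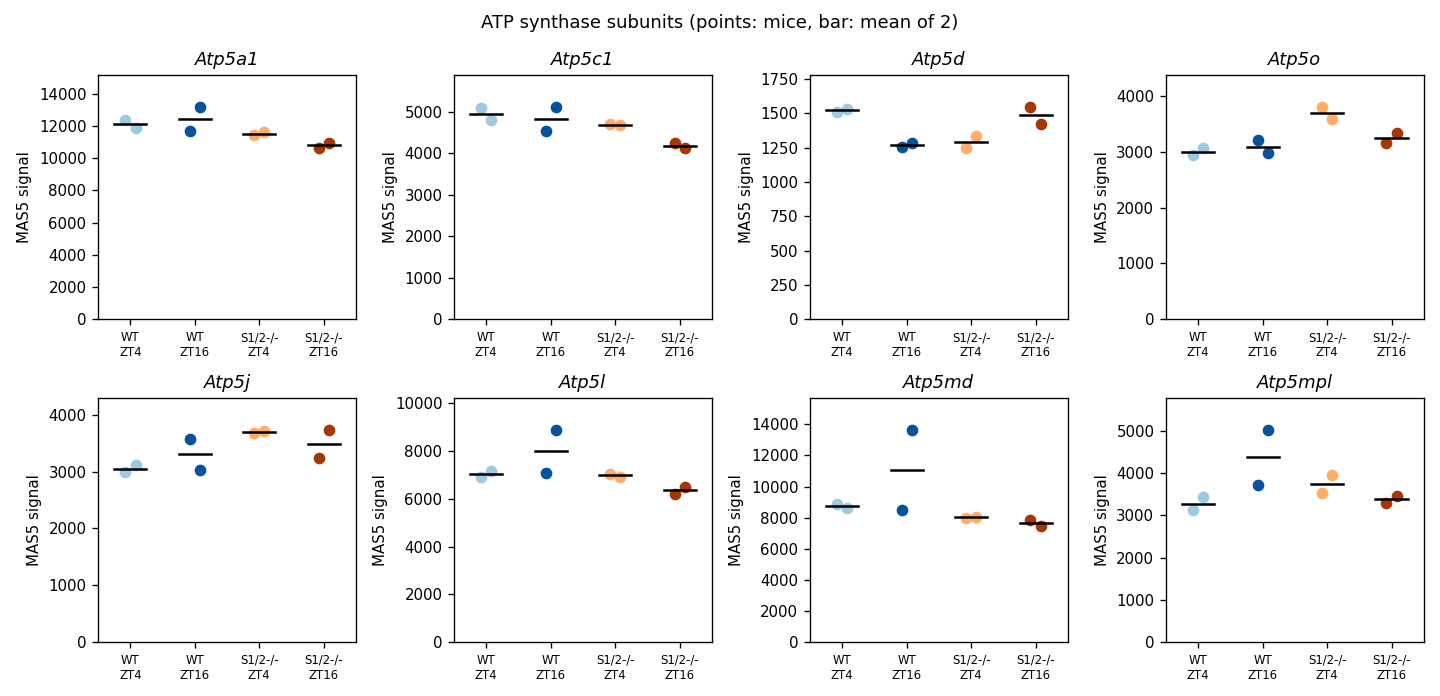
Signals of complex V genes on a linear scale from 0, with 1 point per mouse and a bar at the mean of the 2 mice in each of the 4 groups. *Atp5md* and *Atp5mpl* show the single high point of WT ZT16 replicate 2 (13670 and 5032), *Atp5o* is highest in both S1/2-/- ZT4 mice (3803 and 3577), and *Atp5d* runs in opposite directions in the genotypes.

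Complex I, which takes electrons from NADH, is the largest of the complexes. Of its 26 tested genes, 22 were lower in S1/2-/- mice at ZT16, the median was -0.16, and both S1/2-/- mice lay below both WT mice for 16 (21% of all and 29.8% of bright probe sets). At ZT4, 18 were lower, with a median of -0.045 and 6 without overlap in that direction, about the share of all (19.9%) and of bright probe sets (25.4%). No gene of the complex had an unadjusted p under 0.05 in the higher direction in either comparison.

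Among the tested core subunits of complex I, *Ndufv2* had the lowest p. It read 4196 and 3958 in WT against 3536 and 3485 in S1/2-/- mice at ZT4, and 3786 and 3868 in WT against 3176 and 3199 in S1/2-/- mice at ZT16. The genotypes were apart at both times, by -0.215 (standard error 0.09, adjusted p = 0.629) and -0.26 (adjusted p = 0.365). A dimmer second probe set for *Ndufv2* did not share this, at 0.16 and 0.20, and the average of both gave -0.03 at ZT16. *Ndufv1*, which binds NADH, differed by -0.14 (standard error 0.09) at ZT16, *Ndufs1* by -0.14 (standard error 0.11) and *Ndufs3* by -0.07 (standard error 0.09), with adjusted p of 0.570 to 0.813.

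The accessory subunits of complex I do not carry electrons but stabilise the complex. *Ndufa5* read 3439 and 3811 in WT against 2931 and 3153 in S1/2-/- mice at ZT16, a difference of -0.25 (standard error 0.10, adjusted p = 0.392). At ZT4 the S1/2-/- mice read 3698 and 3494, above both WT mice at 3298 and 3448. *Ndufa6* read 1038 and 990 in WT against 764 and 815 in S1/2-/- mice at ZT16 (-0.36, standard error 0.13, adjusted p = 0.377). *Ndufv3* read 949 and 1313 in WT against 849 and 814 in S1/2-/- mice (-0.425, standard error 0.17, adjusted p = 0.398), where the higher WT value was again replicate 2, and the difference was -0.19 without it. *Ndufa9* was lowest in S1/2-/- mice at ZT16, at 1992 and 1953 against 2428 and 2230 at ZT4 (-0.24, standard error 0.10, adjusted p = 0.675).

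*Ndufa10*, *Ndufa13*, *Ndufb3* and *Ndufs4* were the 4 tested genes of complex I with a higher mean in S1/2-/- mice at ZT16, by 0.005 to 0.23. *Ndufb10* differed by -0.17 (standard error 0.12) at ZT16, and its second probe set was too dim to be tested. *Ndufb7* ran from 2615 and 2423 at ZT4 to 2366 and 1950 at ZT16 in WT, a change of -0.23 (standard error 0.12, adjusted p = 0.670) that was -0.09 without WT ZT16 replicate 2.

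Complex II, succinate dehydrogenase, is shared with the citric acid cycle, and its 4 genes did not run together. *Sdhc*, a membrane anchor, was higher in S1/2-/- mice at ZT16, at 2094 and 2019 against 1714 and 1567 in WT (0.33, standard error 0.12, adjusted p = 0.373), and the mice did not overlap. *Sdhb*, the iron-sulphur subunit, was lower, at 2954 and 3118 against 3278 and 3954 (-0.25, standard error 0.11, adjusted p = 0.458, and -0.11 without WT ZT16 replicate 2), and also at ZT4, at 3042 and 3231 against 3766 and 3512 (-0.21). *Sdhd*, the other anchor, read 1896 and 1266 in the WT mice at ZT16, so its difference of -0.29 (standard error 0.18) was within their spread. The catalytic subunit *Sdha* differed by 0.13 (standard error 0.15), or by -0.06 without that mouse.

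Complex IV, cytochrome c oxidase, hands the electrons to oxygen. Of its 12 tested genes, 8 were lower in S1/2-/- mice at ZT16, with a median of -0.13, and 6 were lower at ZT4, with a median of 0.01. *Cox6c* had the lowest p at ZT16 and read 12370 and 14370 in WT against 11530 and 11790 in S1/2-/- mice (-0.19, standard error 0.09, adjusted p = 0.451), but averaging its 3 probe sets, of which 2 were too dim to be tested, turned the sign to 0.77. *Cox7b* read 3968 and 4822 in WT against 3729 and 3679 in S1/2-/- mice (-0.24, standard error 0.11, adjusted p = 0.463). Without WT ZT16 replicate 2 the differences were -0.085 for *Cox6c* and -0.10 for *Cox7b*.

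Several subunits of complex IV exist as isoforms of different tissues. *Cox6a1*, the form of most tissues, read 16370 and 16210 in WT against 14660 and 14440 in S1/2-/- mice at ZT16 (-0.16, standard error 0.08, adjusted p = 0.483), and its muscle form *Cox6a2* differed by 0.02 (standard error 0.18). *Cox7a2* differed by -0.03 (standard error 0.12) and its relative *Cox7a2l* by -0.17 (standard error 0.12, and -0.11 without WT ZT16 replicate 2), whereas the muscle form *Cox7a1* did not pass the filter. *Cox4i1* differed by 0.10 (standard error 0.15). A dimmer second probe set for it, also tested, differed by 1.29, at 129 and 43 in WT against 198 and 166 in S1/2-/- mice. The lower WT value there was that of WT ZT16 replicate 2. *Cox6b1* differed by 0.43 (standard error 0.27), with WT mice at 257 and 452 and S1/2-/- mice at 489 and 428, and the testis form *Cox6b2* by -0.10 (standard error 0.46). *Cox8b* differed by -0.37 (standard error 0.22, and -0.21 without that mouse) and *Cox8c* by 0.33 (standard error 0.15), and *Cox8a* did not pass the filter.

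Both assembly factors of complex I in the set passed the filter but gave signals below the lower quartile of the members. *Ndufaf1* read 623 and 489 in WT against 408 and 440 in S1/2-/- mice at ZT16 (-0.38, standard error 0.17, adjusted p = 0.465). *Ndufaf4* read 362 and 437 in WT against 352 and 251 in S1/2-/- mice at ZT4 (-0.42, standard error 0.23, adjusted p = 0.736) and differed by 0.06 at ZT16.

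**Figure D4:**
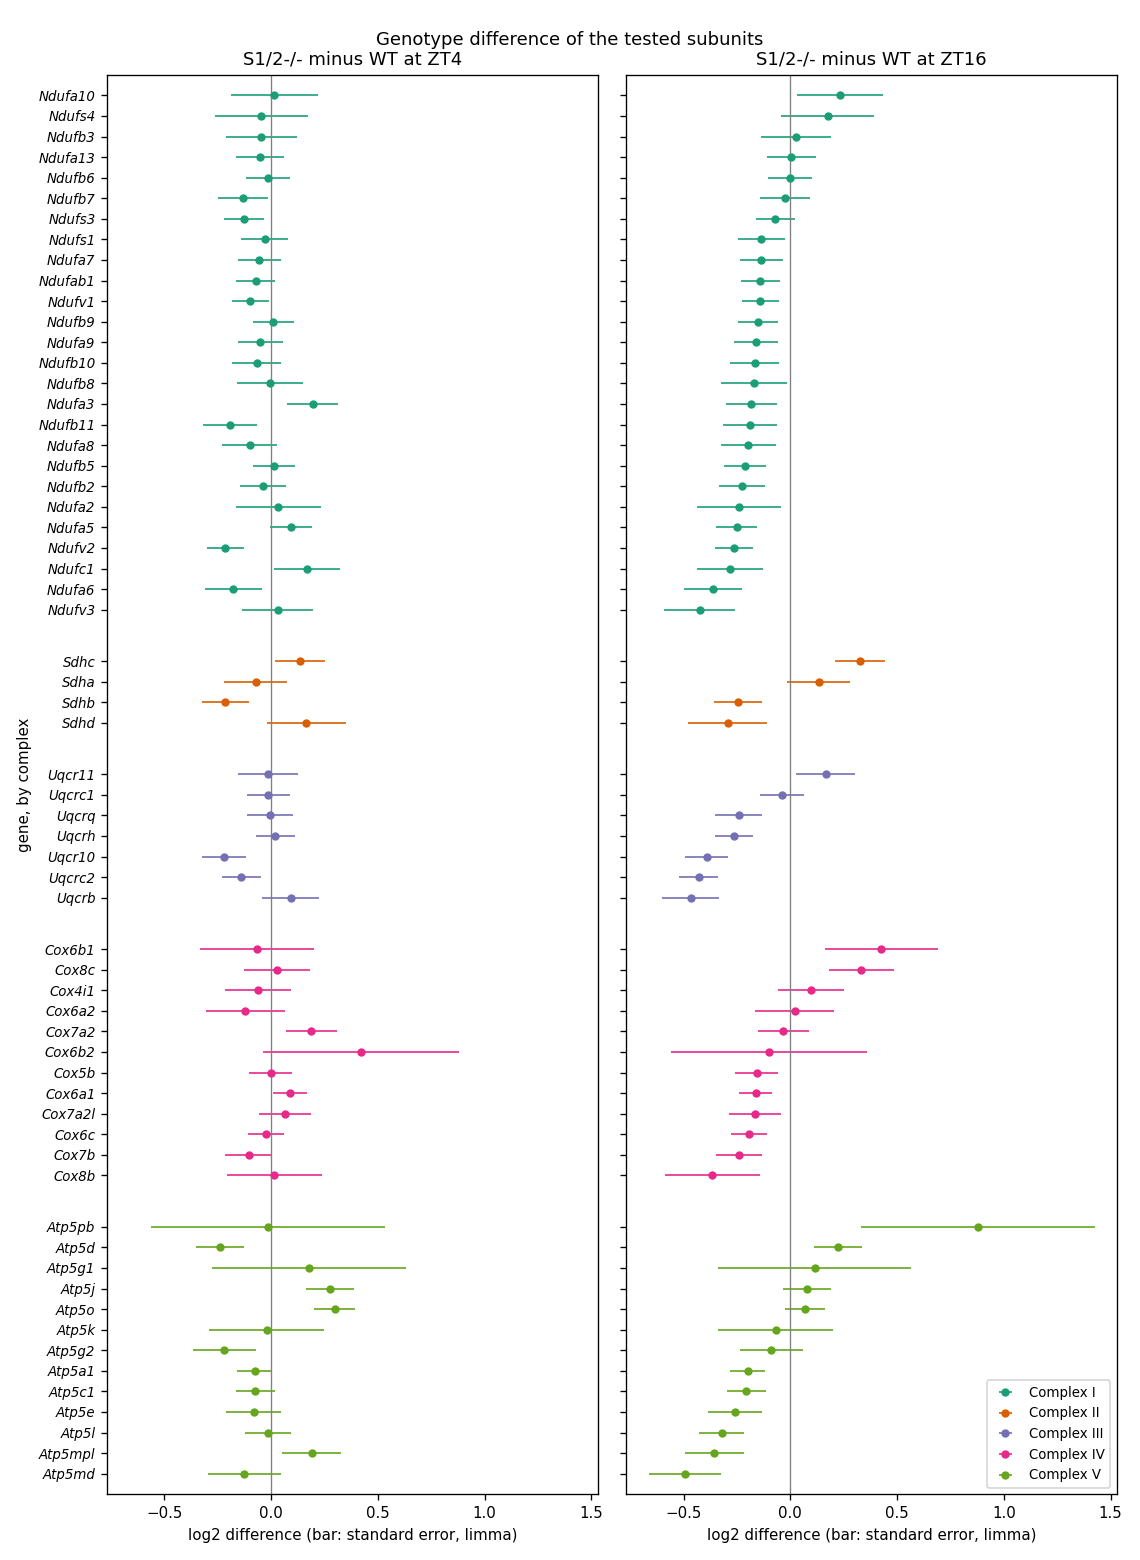
For each tested subunit, grouped and coloured by complex, the difference S1/2-/- minus WT on the log2 scale is drawn as a point with its standard error from limma, for ZT4 and for ZT16. In complex I, 18 of 26 points lie below 0 at ZT4 (median -0.045) and 22 of 26 at ZT16 (median -0.16), and in complex III 5 of 7 and 6 of 7.

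Between ZT4 and ZT16 the members had a median change of 0.02 in WT, with 38 higher and 26 lower at ZT16 (50.6% of all tested probe sets were lower). Median centring of the arrays gave 46 higher and 18 lower, with 46.3% of all tested probe sets lower and their median at 0.02. *Ndufa3*, an accessory subunit of complex I, read 3607 and 4138 at ZT4 and 4460 and 5263 at ZT16 (0.33, standard error 0.12, adjusted p = 0.625), while its second probe set changed by 0.08. *Cox8b* read 287 and 256 at ZT4 and 354 and 437 at ZT16 (0.54, standard error 0.22), and *Atp5mpl* 3119 and 3444 at ZT4 and 3731 and 5032 at ZT16 (0.40, standard error 0.14). Without WT ZT16 replicate 2 the changes were 0.21 for *Ndufa3*, 0.38 for *Cox8b* and 0.19 for *Atp5mpl*. *Ndufa3*, *Cox8b* and *Atp5mpl* were the 3 members with an unadjusted p under 0.05 in the higher direction (3.93% of all tested probe sets), and *Atp5d* was the 1 in the lower direction (3.68%). The ZT16 mice lay above the ZT4 mice for 9 members (17.9% of all) and below for 9 (18% of all).

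In S1/2-/- mice the ZT16 mice lay above the ZT4 mice for 6 members (21% of all tested probe sets, 20.7% of the bright ones) and below them for 29 (20.4% of all, 28.6% of bright). The mean was lower at ZT16 for 22 of 26 genes of complex I, 2 of 4 of II, 5 of 7 of III, 8 of 12 of IV and 9 of 13 of V, and for 47 of the 64 genes in all (50.5% of all tested probe sets and 58.6% of the bright ones). By complex the medians of this change were -0.10 in complex I, -0.02 in II, -0.15 in III, -0.05 in IV and -0.09 in V, beside 0.00, -0.10, 0.10, 0.06 and 0.04 in WT. Without WT ZT16 replicate 2 the WT median was 0.06 in complex III and turned to -0.04 in complex V. Those of complexes II and IV were also smaller in size without that mouse. *Uqcrh*, *Ndufa5* and *Ndufa9* were the 3 members with an unadjusted p under 0.05, all in the lower direction (2.98% of all), with 0 in the higher (4.33% of all).

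For the time change of S1/2-/- minus that of WT mice the members had a median of -0.13, with 45 lower and 19 higher, beside 0.01 over all tested probe sets, of which 48.7% were lower. An unadjusted p under 0.05 was found for 7 members in the lower direction (2.95% of all) and for *Atp5d* in the higher (2.74% of all), and the smallest adjusted p was 0.765. This comparison shares its arrays with the others and is no separate evidence. Its median was -0.06 without WT ZT16 replicate 2.

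At ZT4 the genotypes were closer. The median difference was -0.03, with 42 lower and 22 higher (50.7% of all tested probe sets were lower). The mice did not overlap for 18 members in the lower direction (19.9% of all, 25.4% of bright probe sets) and for 7 in the higher (19.5% of all). Averaged over both times the median was -0.085, with 49 of 64 lower (49.6% of all) and the smallest adjusted p at 0.141.

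Other gene groups, from lists drawn up by function, were set beside the members at the ZT16 genotype comparison. From these same arrays the paper had reported gene sets of the proteasome, the ribosome and oxidative phosphorylation as higher in WT at ZT16. The values below are thus no separate evidence for that report. The 26 tested genes of the cytosolic ribosome had a median of -0.20, with 12 at an unadjusted p under 0.05 in limma in the lower direction and 0 in the higher. The 41 of the proteasome had -0.11, with 6 lower and 2 higher at that p. Of all tested probe sets 5.21% were lower and 5.73% higher at that p, and of the bright ones 9.31% were lower. Of other mitochondrial groups, 19 genes of the citric acid cycle had a median of -0.02, 18 of mitochondrial import 0.02, 14 further assembly factors 0.04, 14 other subunits and electron carriers -0.06, 5 nucleotide and phosphate carriers -0.08, and 11 transcription factors and mitochondrial transcription proteins -0.01. None of these genes was called. No difference between gene groups was tested.

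Markers of other cells and regions differed between the same mice. Of 9 oligodendrocyte markers listed, 8 were measured and 7 tested, and all 7 were higher in S1/2-/- mice at ZT4 (median 0.88, 3 called) and at ZT16 (median 0.48). Their summed signal was 16850 to 18620 in WT ZT4, 22390 to 22900 in WT ZT16, 28400 to 29580 in S1/2-/- ZT4 and 26040 to 28270 in S1/2-/- ZT16. The 5 markers of cortical excitatory neurons were higher at ZT16 (median 0.45), with sums of 10320 to 13860 in WT and 14300 to 15540 in S1/2-/- mice, and 6 markers of neurons in general had a median of 0.04. The sum of 4 choroid plexus markers was 3845 to 4373 in WT and 1245 to 1368 in S1/2-/- mice at ZT16, where 2 of the 4 were below a signal of 50 in the S1/2-/- mice, and 971 to 1526 in WT and 1640 to 3059 in S1/2-/- mice at ZT4. The 2 tested ones went opposite ways at ZT16, by -4.33 and 0.26, and both were higher in S1/2-/- mice at ZT4. The 4 striatal markers summed to 9900 to 14290 in WT and 6874 to 11560 in S1/2-/- mice at ZT16, where the genotypes overlapped. Of the 3 tested ones, 2 were lower and 1 was higher in S1/2-/- mice at that time (median -0.44). At ZT4 the sums were 3754 to 4308 in WT and 8869 to 13420 in S1/2-/- mice, with all 3 tested ones higher (median 1.42, none called). The part of these cell types in the values of the subunits was not tested.

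**Figure D5:**
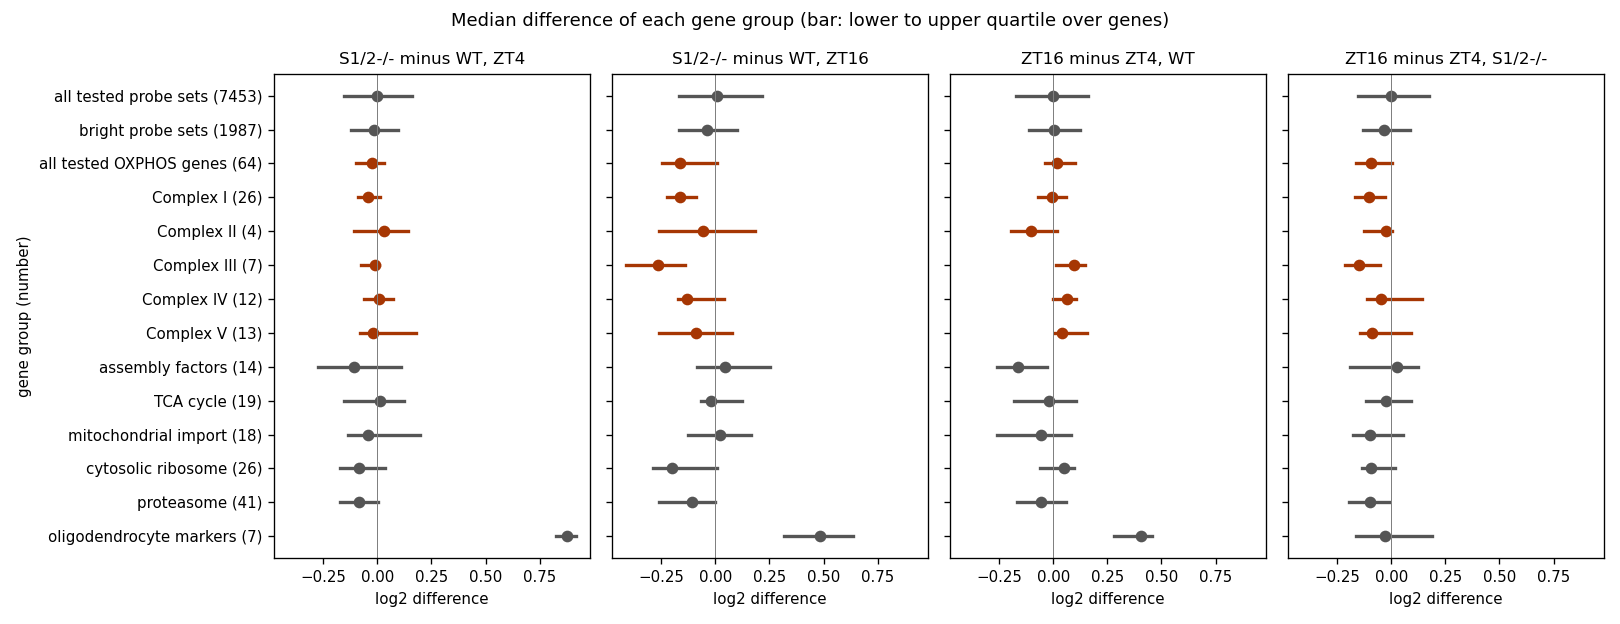
Points mark the median log2 difference of each gene group and bars its lower and upper quartile over genes, for the subunits by complex and for other groups. At the genotype comparison at ZT16 complex III (-0.26) and the cytosolic ribosome (-0.20) lie lowest, the citric acid cycle (-0.02) and mitochondrial import (0.02) lie near 0, and oligodendrocyte markers lie above 0 (0.48).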

How the data were processed

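RNA of 8 cortices was hybridised to Affymetrix arrays. Each file was deposited as MAS5 signal intensities, 1 per probe set and array, made by the authors. Their trimmed mean, with 2% left out at each end, was 500 on every array. No source used here names the MAS5 release. Signals under 1 (64 values) were set to 1 and log2 taken, without further normalization. Of 12422 probe sets after 66 controls were left out, the 7453 with a mean log2 signal at or above the 40th percentile were tested with limma 3.58.1 in R 4.3.3 (lmFit with 1 mean per group, eBayes with an intensity trend, 4 residual and 6.02 prior degrees of freedom), with Benjamini-Hochberg adjustment over all of them. The number of arrays limits the precision. An unmoderated fit in place of the methods' ANOVA, other filters, scalings and a pseudocount of 16 were tried. So were the replicate number as a block, the mean over probe sets and each mouse left out. The fit was tested on simulated data.

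Members, gene lists and tests were chosen with earlier results of these data known. Named are called members, the 2 with the lowest p per complex in each of 5 comparisons, isoform families and members whose probe sets disagree. The rest, the count of genes for which both mice of a group were lowest, the bright background and an alternative with plain probe sets were chosen after values were seen. Symbols came from GEO's platform annotation. Probe sets whose suffix marks probes shared with other transcripts, including those of *Uqcrb*, *Uqcrc2*, *Ndufa5*, *Cox6c* and *Atp5md*, may read related transcripts or pseudogenes. Promoters were searched with python 3.11.15.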

Additional observations from a re-analysis of the deposited data

How the results depend on the processing

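Of 245 alternative values for the medians and call counts of the members, 232 stayed the same and 13 moved. A call count stayed the same if it was equal, and a median if it moved by less than the spread between partner mice. The sign was no part of this rule, and the median for time in WT, which is near 0, could turn. Median centring of the arrays gave medians of -0.137 for time in S1/2-/- mice, -0.197 for the difference of the time changes, -0.265 for genotype at ZT16 and -0.153 for genotype averaged over times. It also moved the medians of all tested probe sets, to -0.048, -0.06, -0.096 and -0.066 in the same order. Quantile normalization gave -0.119 for genotype at ZT16. Leaving out 1 mouse at a time gave medians of -0.006 to 0.056 for time in WT, -0.106 to -0.075 for time in S1/2-/- mice, -0.155 to -0.063 for the difference of the time changes, -0.067 to -0.001 for genotype at ZT4, -0.205 to -0.108 at ZT16, -0.112 to -0.066 averaged over times and -0.056 to -0.018 for time averaged over genotypes. The number of members called then ranged from 0 to 2 for time in WT (*Atp5md* at 0.642 and *Atp5mpl* at 0.619 without WT ZT16 replicate 1), and from 0 to 1 for the difference of the time changes (*Atp5md* at -0.71) and for genotype at ZT16 (*Atp5md* at -0.835), each without the same mouse. With plain probe sets alone, 46 members were left, with a median of -0.14 at ZT16.

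Mice of the same replicate number did not deviate together between groups (r = -0.001 to 0.098 over probe sets), so the numbers do not pair the mice. With the replicate block 0 members were called, the median at ZT16 was -0.163, and 15 members had an unadjusted p under 0.05 in the lower direction. With 2 mice per group, a 1.5-fold change at ZT16 lay outside the 95% interval of 43 of the 64 members, and for the others the interval reached it.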

Other observations

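Outside the respiratory complexes, the 2 genes with the lowest p in each list were as follows at the ZT16 genotype comparison, none of them called. In the cytosolic ribosome *Rpl22* read 545 and 734 in WT against 341 and 427 in S1/2-/- mice (-0.73, standard error 0.20, adjusted p = 0.306), and *Rps3a1* differed by -0.25 (adjusted p = 0.354). In the proteasome, which degrades ubiquitinated proteins, the catalytic beta subunit *Psmb6* read 1130 and 1419 in WT against 816 and 725 in S1/2-/- mice (-0.72, standard error 0.15, adjusted p = 0.212), and *Psmb3* differed by -0.45 (adjusted p = 0.355). *Idh2*, the NADP-dependent isocitrate dehydrogenase of mitochondria, read 263 and 261 in WT against 366 and 373 in S1/2-/- mice (0.50, standard error 0.19, adjusted p = 0.396), with a like order at ZT4, at 282 and 313 against 404 and 353. *Pdhb*, of pyruvate dehydrogenase, differed by -0.21.

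Among proteins of mitochondrial import the receptor *Tomm20* was at 0.94 (standard error 0.36, adjusted p = 0.381) and *Timm8b* at -0.28 (adjusted p = 0.435). *Vdac3*, a pore of the outer membrane, read 1421 and 1698 in WT against 1098 and 1250 in S1/2-/- mice (-0.41, standard error 0.15, adjusted p = 0.376), and the adenine nucleotide carrier *Slc25a4* differed by -0.08. Of the transcription proteins, *Tfb2m*, which serves the mitochondrial RNA polymerase, read 278 and 319 in WT against 199 and 173 in S1/2-/- mice (-0.69, standard error 0.25, adjusted p = 0.378), and *Pprc1* was at 0.54. The coactivator *Ppargc1a*, known for its role in mitochondrial biogenesis and added after its value was seen, differed by 0.08 (standard error 0.26). *Uqcc2*, which assembles complex III, differed by -0.23 and *Cox18* by 0.43. *Gpd2*, of the glycerol phosphate shuttle, differed by 0.41 and *Atpif1*, the inhibitor of the ATP synthase, by -0.18.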
